A study of Mus musculus with 2 samples.

Results

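The miRNA genes Mir341, Mir1188, Mir370, Mir3072 and Mir1247 lie in the imprinted Dlk1-Dio3 region of mouse chromosome 12, outside its dense miRNA clusters, one of which ends at Mir136 beside Rtl1 while the other runs from Mir379 to Mir410. They are 5 of the 2202 miRNA genes counted in the adrenal gland, and were picked by symbol from the genes at such positions that had already been seen to be detected, so their levels are given as a description. The other 2 miRNA genes beyond Mir136 and outside the Mir379 to Mir410 cluster, Gm23912 and Mir882, had no count. All miRNA genes of the region before Mir341 were put in the segment that ends at Mir136. The series holds 1 group with 2 libraries of small RNA, with inserts below 30 nt, made from total RNA of adrenal gland of C57BL/6J mice obtained from The Jackson Laboratory. No allele or treatment is given. The mice are described in words as wild type (WT) males, although sex is entered as not collected, and their age and developmental stage are unknown. The libraries are numbered as biological replicates 1 and 2 and have a biosample entry each under a donor entry in common. Whether they stand for separate animals is therefore not shown, and their spread may be technical. No condition is contrasted.

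The Dlk1-Dio3 region expresses its protein-coding genes Dlk1, Rtl1 and Dio3 mainly from the paternal chromosome, and its long noncoding RNAs Meg3, Rian and Mirg, together with the small RNAs that lie in them, from the maternal one. A miRNA gene is transcribed as part of a longer RNA, from which a hairpin is cut out and trimmed into mature miRNAs from its 5′ and 3′ arms. The seed near the 5′ end of a mature miRNA guides it to messenger RNAs. Dio3, at the far end of the region, encodes the deiodinase that inactivates thyroid hormone, and Dio3os is transcribed from the opposite strand beside it.

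All 5 genes matched a hairpin in RefSeq on GRCm38.p6, the assembly of mm10, at the same positions as in the deposited tables' annotation. Their 10 mature miRNAs are shown because they let a reader see how little these genes share. Capitals mark the seed, bases 2 to 8 from the 5′ end.
mmu-miR-341-5p: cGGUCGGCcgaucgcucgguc
mmu-miR-341-3p: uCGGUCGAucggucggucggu
mmu-miR-1188-5p: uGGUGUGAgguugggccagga
mmu-miR-1188-3p: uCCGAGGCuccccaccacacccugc
mmu-miR-370-5p: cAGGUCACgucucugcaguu
mmu-miR-370-3p: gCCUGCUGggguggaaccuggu
mmu-miR-3072-5p: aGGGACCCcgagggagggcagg
mmu-miR-3072-3p: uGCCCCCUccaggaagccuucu
mmu-miR-1247-5p: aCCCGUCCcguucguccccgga
mmu-miR-1247-3p: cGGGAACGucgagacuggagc

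The 10 mature miRNAs carried 10 different seeds, so no 2 of them share one. Among all 1679 mature miRNAs in the RefSeq table, 9 of the 10 had a seed found in no other, against 72.1% of the whole table. The exception was miR-370-5p, whose seed was also that of miR-1193-3p, from a miRNA gene of the Mir379 to Mir410 cluster in the same region. Outside the seed these mature forms differ, as the next line shows.
mmu-miR-1193-3p: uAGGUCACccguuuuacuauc

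The hairpins of Mir341 and Mir1247 stood apart in composition and are shown whole, with the mature miRNAs in capitals.
Mir341 hairpin: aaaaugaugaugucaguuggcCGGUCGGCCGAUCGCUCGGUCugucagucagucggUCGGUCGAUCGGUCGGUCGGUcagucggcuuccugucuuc
Mir1247 hairpin: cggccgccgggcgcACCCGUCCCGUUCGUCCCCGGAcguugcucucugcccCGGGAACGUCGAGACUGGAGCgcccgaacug
The Mir341 hairpin of 96 bases repeats the letters GGUC 7 times, counted on the hairpin strand without overlap. It was the single one of 1005 RefSeq hairpins to hold that many, while 24.9% of them held at least 1 copy. Its mature arms share an identical run of 7 bases, CGGUCGG, a length reached by 20 of the 677 hairpins (2.95%) with a mature miRNA annotated on each arm. In the other 4 hairpins the longest run common to the arms was 4 bases, a length reached by 65.0% of hairpins.

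Mir1247 and Mir341 were rich in the dinucleotide CG, the site of DNA methylation. The 82 bases of the Mir1247 hairpin held 14 CG and those of Mir341 held 12, against a median of 1 over all 1005 hairpins and 2 each in Mir1188, Mir370 and Mir3072. Only 9 hairpins held more CG than Mir1247 and 12 held more than Mir341. In GC content Mir1247 (74.4%) and Mir3072 (72.3%) exceeded 98.4% and 98.0% of hairpins, while Mir1188 (60.8%), Mir341 (59.4%) and Mir370 (55.7%) lay closer to the median of 51.7%. The minimum free energy of folding predicted by RNAfold ran from -0.35 kcal/mol per base for Mir1188 to -0.56 for Mir3072, with Mir370 at -0.52, Mir1247 at -0.46 and Mir341 at -0.44, and a median of -0.41 over all hairpins. Of the 5, only Mir1188, which is also the longest at 120 bases, was predicted to fold less tightly than the median hairpin.

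On mm10, Mir341 (ENSMUSG00000070101.1) lies at chr12:109611500-109611595 and Mir1188 (ENSMUSG00000080406.1) at chr12:109611822-109611941, both on the plus strand. Only 226 bases separate them, and both fall between the same exons of Rian, a long noncoding RNA of the maternal chromosome. Mir370 (ENSMUSG00000065433.1), at chr12:109618258-109618336, follows 6.32 kb further on, in another intron of Rian. From Mir370 it is 90.7 kb to Mir379, the first gene of the large cluster. Mir3072 (ENSMUSG00000093351.1), at chr12:109747878-109747960, lies 4.08 kb beyond Mir410, the last gene of that cluster. It is within Mirg, where 1 annotated exon covers 58 of its 83 bases and none covers all of them. How many transcripts use that exon was not examined.

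Mir1247 (ENSMUSG00000080356.1) lies at chr12:110278048-110278129, a further 530 kb away and 0.938 kb from Dio3. It is on the minus strand, wholly inside an exon of Dio3os, and hence in a different transcript from the other 4. Of the 67 miRNA genes annotated from Dlk1 to 50 kb past Dio3, 8 are on the minus strand. Mir3544 and Mir1247 were the only ones of these 8 detected, detection being set at 10 CPM (counts per 1000000 counts assigned to miRNA genes) or more in both replicates. No miRNA gene overlaps any of the 5 on the opposite strand, and the deposited tables held 0 antisense counts at each of them in both replicates. All their counts are therefore from the strand of the annotated gene.

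Replicate 1 had 10263894 counts assigned to miRNA genes and replicate 2 had 3525666, from 20598186 and 10628898 reads. Unmapped reads were 13.8% of replicate 1 and 41.4% of replicate 2. CPM levels refer to these assigned counts, and the 3 counts that a count of 0 allows come to 0.292 CPM in replicate 1 and 0.851 CPM in replicate 2. Neuroendocrine, endothelial and smooth muscle marker genes were present in both libraries. No list of adrenal cortex markers was examined. The sum over the neuroendocrine genes Mir375, Mir7-1, Mir7-2 and Mir7b was 73420 and 80086 CPM, the endothelial Mir126a had 89916 and 95595 CPM, and the smooth muscle genes Mir143 and Mir145a together had 25619 and 26619 CPM. Skeletal and cardiac muscle genes summed to 2.24 and 2.55 CPM, with 4 of 6 genes at 0, namely both copies of Mir1a and of Mir133a, where a 0 sets no limit because reads common to copies enter no gene. Liver Mir122 had 104 and 97.6 CPM, and 5 epithelial genes summed to 48.6 and 43.1 CPM. The testis genes of the X chromosome came to 1 count in all, and the neuronal Mir9 and Mir124a copies to 1 count in all, where the same limit of copies applies.

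All 5 genes were detected, against 267 of all 2202 miRNA genes (12.1%) and 43 of the other 62 miRNA genes of the region (69.4%). Since these 5 were named because they had been detected, that count carries no weight. Together they took 0.0649% of counts in replicate 1 (exact Clopper-Pearson 95% interval 0.0633% to 0.0665%) and 0.119% in replicate 2 (0.116% to 0.123%), a mean of 0.0922% ± 0.0385 (SD, n = 2). Within the counts of the region's miRNA genes their share was 1.01% in replicate 1 and 2.12% in replicate 2. These intervals, like those that follow, cover counting error only and leave out the spread between libraries. They treat reads as independent, and amplified reads of the same molecule were not told apart, so they may be too narrow. Compared on the gene strand, none of the 5 hairpins shares a stretch of 20 bases with another annotated miRNA gene. Of all 2202 genes, 1084 (49.2%) do. A loss of reads of the 5 genes to the gene strand of another annotated hairpin is therefore not seen at that length. Matches to the opposite strand of a hairpin were not looked for. Reads that also match elsewhere in the genome would still be missing, which was not checked, and multimapping reads, which enter no gene, were 37.8% and 38.8% of mapped reads in replicates 1 and 2. The same applies to the repeats of Mir341.

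**Figure D1:**
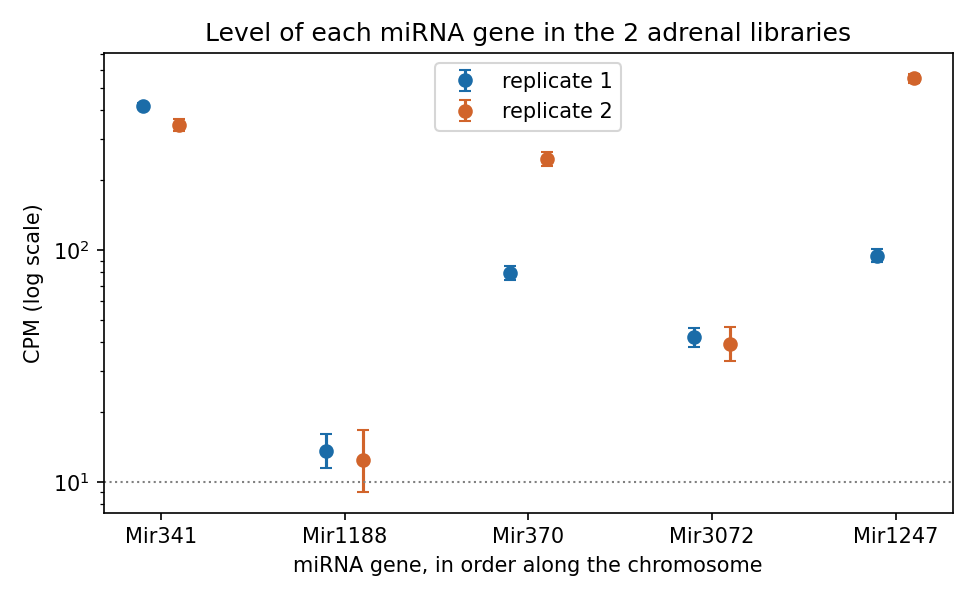
CPM on a log axis for each of the 5 genes, in order along the chromosome, in replicate 1 (blue) and replicate 2 (orange), with bars for the exact 95% counting interval and a dotted line at the detection minimum of 10 CPM. The replicates lie close together for Mir341, Mir1188 and Mir3072 and far apart for Mir370 and Mir1247, where replicate 2 is the higher.

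Mir341, a miRNA gene known from rodents, had the highest mean of the 5. It had 4301 counts in replicate 1 and 1219 in replicate 2, which is 419 CPM (95% interval 407 to 432) and 346 CPM (327 to 366). The mean was 382 ± 51.8 CPM (SD, n = 2), rank 107 among all 2202 genes and rank 18 among the 48 detected genes of the region. With library sizes scaled by TMM, edgeR's correction for library composition, and 0.5 counts added, it was higher in replicate 1 by 1.23-fold.

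Mir1188, its close neighbour in Rian, had the lowest level of the 5 and was the one nearest the detection minimum. It had 140 counts (13.6 CPM, 11.5 to 16.1) in replicate 1 and 44 counts (12.5 CPM, 9.07 to 16.8) in replicate 2, with a mean of 13.1 ± 0.820 CPM (SD, n = 2). In replicate 2 the interval reaches below 10 CPM, so its place above that minimum is within counting error. Mir1188 ranked last by mean among the 48 detected genes of the region. Gm23912 and Mir882, the other miRNA genes beyond Mir136 and outside the Mir379 to Mir410 cluster, each had 0 counts in both replicates. Gm23912 lies between Mir1188 and Mir370. Compared on the gene strand, neither Gm23912 nor Mir882 shares a stretch of 20 bases with another annotated miRNA gene.

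The pair formed by Mir341 and Mir1188 stood in much the same proportion in both libraries. Mir1188 made up 3.15% of the counts of the pair in replicate 1 (exact 95% interval 2.66% to 3.71%) and 3.48% in replicate 2 (2.54% to 4.65%). Mir341 was thus 30.7 times as frequent as Mir1188 in replicate 1 and 27.7 times in replicate 2, although the hairpins stand 226 bases apart within the same intron. The intervals of the libraries overlap widely. How far each miRNA is recovered by the library protocol is not known, so a ratio between miRNAs may differ from the ratio of their molecules.

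Mir370, whose mature miRNA has been reported to act on the fatty acid oxidation enzyme Cpt1a in liver cells, had another pattern than these neighbours. It had 817 counts in replicate 1 and 869 in replicate 2, despite the smaller depth of the latter. This corresponds to 79.6 CPM (74.2 to 85.2) and 246 CPM (230 to 263), a mean of 163 ± 118 CPM (SD, n = 2). The intervals do not overlap, and with the same scaling and added counts replicate 2 was higher by 3.06-fold. Relative to Mir341, from the same host RNA, Mir370 made up 16.0% of the counts of the pair in replicate 1 (15.0% to 17.0%) and 41.6% in replicate 2 (39.5% to 43.8%). This proportion needs no scaling between libraries.

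Mir3072 had 432 counts (42.1 CPM, 38.2 to 46.3) in replicate 1 and 139 counts (39.4 CPM, 33.1 to 46.6) in replicate 2, with a mean of 40.8 ± 1.88 CPM (SD, n = 2). Its replicates overlapped within counting error. Mir410, the nearest miRNA gene on the side of the cluster, had 23.6 and 33.8 CPM. These were lower than Mir3072 in each library, though in replicate 2 the difference was within counting error. Mir3072 made up 64.1% of the counts of this pair in replicate 1 (60.3% to 67.7%) and 53.9% in replicate 2 (47.6% to 60.1%).

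Mir1247, whose mature miRNA has been reported to act on the cartilage transcription factor Sox9, differed most between the libraries. It had 971 counts in replicate 1 and 1939 in replicate 2, or 94.6 CPM (88.7 to 101) and 550 CPM (526 to 575). The mean of 322 ± 322 CPM (SD, n = 2) describes neither library. Mir1247 ranked 180 among all miRNA genes in replicate 1 and 93 in replicate 2, and among the 48 detected genes of the region it ranked 32 and 16. Against Mir3072, its nearest miRNA gene, it had 2.25 times the counts in replicate 1 and 13.9 times in replicate 2.

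By mean level the order was Mir341, Mir1247, Mir370, Mir3072 and Mir1188, and only its lower part held in each library. Mir341 was 4.43 times as high as Mir1247 in replicate 1 and 0.629 times as high in replicate 2, so these 2 exchanged places. Mir1247 was 1.19 times as high as Mir370 in replicate 1 and 2.23 times in replicate 2, with overlapping ranges over the libraries. The difference of these means, 159 CPM, is smaller than the SD of Mir1247. Mir370 was above Mir3072 in both, by 1.89 and 6.25 times, and Mir3072 above Mir1188 by 3.09 and 3.16 times.

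**Figure D2:**
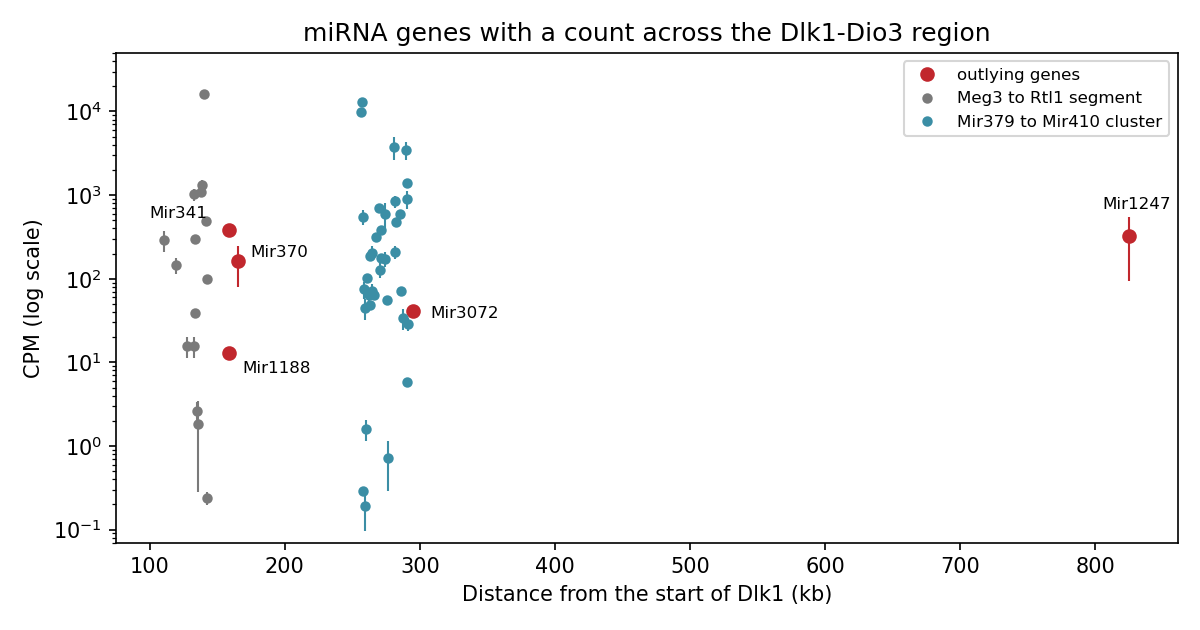
Mean CPM on a log axis of each miRNA gene of the region with a count, against the distance of its start from the start of Dlk1 in kb. Vertical lines span the 2 replicates; the 5 outlying genes are in red, and Mir1247 stands alone at 825 kb.

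Placed along the region, the 5 genes had moderate levels. The 17 genes from the Meg3 end to Mir136 took 2.10% ± 0.334 of counts (SD, n = 2), with 12 detected, and were led by Mir127 (18069 and 14209 CPM), Mir433 (1524 and 1127 CPM) and Mir431 (1021 and 1140 CPM). The 43 genes from Mir379 to Mir410 took 3.84% ± 0.267, with 31 detected, and were led by Mir411 (12790 and 12843 CPM), Mir379 (10514 and 9287 CPM) and Mir382 (4906 and 2592 CPM). Among detected genes the median of the mean levels was 163 CPM for the outlying genes, 293 CPM for the first segment and 204 CPM for the cluster. By mean, Mir341 and Mir1247 (322 CPM) were thus above the median of either group, while none of the 5 came near the leading genes. For Mir1247 this rests on replicate 2, with 550 CPM against 94.6 CPM in replicate 1. Mir136, the nearest plus-strand miRNA gene before Mir341, had 106 and 95.3 CPM. Mir1193, which shares its seed with miR-370-5p, had 166 CPM in replicate 1, above Mir370 there, and 204 CPM in replicate 2, below it.

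The replicates were then compared gene by gene with an exact two-sided binomial test against library sizes scaled by TMM, with Benjamini-Hochberg adjustment over the 443 genes that had at least 10 counts over both replicates. This compares 2 libraries of 1 group and not conditions. At an adjusted threshold of 0.05, 3 of the 5 genes passed, Mir341 higher in replicate 1 and Mir370 and Mir1247 higher in replicate 2. Over all genes tested 52.8% passed, 21.2% being higher in replicate 2 and 31.6% in replicate 1. A count of 3 of 5 is near the background. Mir1247 had earlier been singled out for this very ratio.

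The sizes of the ratios separate the 5 genes more than the calls do. The log2 ratio of replicate 2 over replicate 1 was 2.52 for Mir1247 (exact 95% interval 2.41 to 2.63), or 5.74-fold, and 1.61 for Mir370 (1.47 to 1.75). It was -0.29 for Mir341 (-0.39 to -0.20), -0.13 for Mir1188 (-0.67 to 0.35) and -0.11 for Mir3072 (-0.40 to 0.17), while the median of all genes tested was -0.17. Only 1 of the 443 genes had a higher ratio than Mir1247 and 9 had a higher ratio than Mir370. Replicate 2 was more than 2-fold above replicate 1 in 7.0% of the genes tested.

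**Figure D3:**
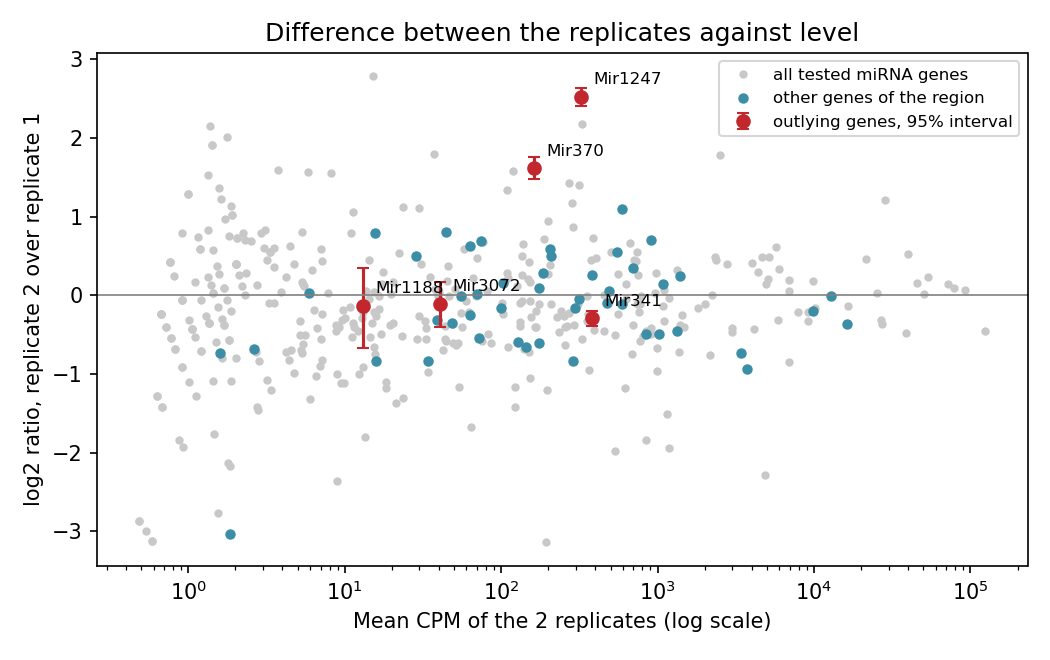
Log2 ratio of replicate 2 over replicate 1 against mean CPM on a log axis, for all 443 genes tested (grey), the other genes of the region (blue) and the 5 outlying genes (red, with exact 95% intervals). Mir1247 at 2.52 and Mir370 at 1.61 lie above every blue point, while Mir341, Mir1188 and Mir3072 lie among them.

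Other miRNA genes of the region did not reach these ratios. Of the 47 tested, all had a ratio below that of Mir370, and the highest was 1.10 for Mir487b (376 and 813 CPM). The other 47 had a median of -0.10, with 15 higher in replicate 2, 20 higher in replicate 1 and 12 that did not pass the test. The first segment had 2 of 14 higher in replicate 2, 8 higher in replicate 1 and a median of -0.41, and the Mir379 to Mir410 cluster had 13 of 33 and 12 of 33 with a median of 0.02. Mir341, Mir1188 and Mir3072 had 18, 22 and 23 of the 47 below them. No test of a difference between the 5 genes and the rest of the region was made, since the 5 were chosen with these values known.

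The ratios were set beside host RNA and base composition. Mir341, Mir1188 and Mir370 share the host Rian, with ratios of -0.29, -0.13 and 1.61. Mir341 and Mir1247 share a high number of CG, with ratios of -0.29 and 2.52, and Mir3072 and Mir1247 share a high GC content, with ratios of -0.11 and 2.52. Across the 239 tested genes with a RefSeq hairpin and a mean of at least 10 CPM, Spearman's rho between the ratio and the number of CG in the hairpin was 0.31 and Pearson's r was 0.25, and rho was 0.30 over the 234 genes without the 5. These genes all come from the same 2 libraries and are not independent. The median ratio was -0.38 for 41 genes with 0 CG, -0.27 for 65 with 1, -0.002 for 52 with 2, 0.19 for 49 with 3 or 4 and -0.01 for 32 with 5 or more. For GC content rho was 0.05. The part of host RNA, of GC content and of the number of CG in the ratios of Mir370 and Mir1247 was not tested.

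Marker genes of other cell types were set beside these ratios. The erythroid genes Mir451a, Mir144 and Mir486, 2 of 3 detected, summed to 8370 CPM in replicate 1 and 1814 CPM in replicate 2. The direction of this sum is opposite to that of Mir370 and Mir1247, but it need not hold for each erythroid gene. The leukocyte genes Mir142, Mir150, Mir223 and Mir146, all 4 detected, summed to 1476 and 1592 CPM. That sum need not hold for each gene, as Mir223 alone had 59.2 and 178 CPM. The rest of the sum, from Mir142, Mir150 and Mir146 together, differed little between the libraries. The sums for the neuroendocrine, endothelial and smooth muscle genes, given above, were 4 of 4, 1 of 1 and 2 of 2 detected and slightly higher in replicate 2. The part of these markers, and of the larger unmapped share of replicate 2, in the ratios of Mir370 and Mir1247 was not tested. In bulk tissue, more cells of a type and more RNA per cell cannot be told apart.

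The miRNA genes outside the region most like each of the 5 were found by the distance of log2(CPM + 1) over the 2 libraries, which with 2 libraries reflects little beyond level and ratio. Closest to Mir1247 was Mir301, on chromosome 11, with 118 and 536 CPM at a distance of 0.31, followed by Mir101a at 0.78 (146 and 395 CPM). Closest to Mir370 was Mir223, the leukocyte gene on the X chromosome, with 59.2 and 178 CPM at a distance of 0.63, and next Mir204 (106 and 169 CPM) at 0.68. For the other 3 genes the nearest genes lay closer. They were Mir330 (409 and 344 CPM) and Mir467d (447 and 334 CPM) for Mir341, Mir3074-1 (14.0 and 12.2 CPM) and Mir199a-2 (14.2 and 11.6 CPM) for Mir1188, and Mir1249 (39.6 and 39.7 CPM) and Gm23450 (39.2 and 40.8 CPM) for Mir3072. The levels of Mir101a, Mir467d, Mir3074-1 and Mir199a-2 are uncertain because of 20-base stretches found in other miRNA genes too.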

How the data were processed

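The authors deposited raw counts per miRNA gene, 1 table per library without a header, with 4 summary lines and 3 columns. Build mm10 and annotation GENCODE M21 are named per the file headers in the accompanying description files, and an adapter trimming protocol is linked per the labels. Which aligner and counter were used is not given in the sources used here. Columns were read as counts without regard to strand, on the gene's strand (used here) and on the opposite strand. Multimapping reads entered no gene, and the tables do not separate the arms of a hairpin. The summary lines, 50.2% of reads in replicate 1 and 66.8% in replicate 2, stayed out of all totals.

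CPM, SD, exact intervals and exact binomial tests were computed with Python 3.11.15, numpy 2.4.6, pandas 2.3.3 and scipy 1.17.1. TMM factors (0.994 and 1.006) came from edgeR 4.0.16 under R 4.3.3, and size factors from DESeq2 1.42.0. With 1 group, edgeR's quasi-likelihood test could not be used. Log2 ratios had 0.5 counts added. Sequences came from RefSeq (GRCm38.p6), folded with RNAfold 2.7.2, and matplotlib 3.10.9 drew the figures. The binomial test was tested on simulated counts. Members, lists and tests were chosen with earlier results of these data known. Named beside the 5 members are the 3 highest genes of each segment, the nearest miRNA gene on each side, the 2 most alike genes outside the region per member, and genes that share a seed. Mir487b and Mir3544 were named after their values were seen.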

Additional observations from a re-analysis of the deposited data

How the results depend on the processing

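With 2 libraries of 1 group, leaving out a library leaves a single value with no test. The share held by the 5 genes then ranged from 0.0649% to 0.119%, and all 5 genes remained at or above 10 CPM in either library alone. Raising the detection minimum to 100 CPM left 1 of the 5, Mir341, while 1 CPM left all 5. The 3 calls of Mir341, Mir370 and Mir1247 were made under TMM, unscaled totals, DESeq2 size factors, counts without regard to strand and no minimum count. Over all genes the count of calls ran from 206 of 418 without regard to strand to 234 of 443, with 226 of 767 when no minimum count was set. No log2 ratio changed sign: Mir1247 ran from 2.52 to 2.60, Mir370 from 1.61 to 1.69, Mir341 from -0.29 to -0.22, Mir1188 from -0.13 to -0.06 and Mir3072 from -0.11 to -0.03. Mean levels in the column without strand were higher because its total is smaller, with 437 CPM for Mir341, 14.9 for Mir1188 and 46.5 for Mir3072. Taken per uniquely mapped read instead of per assigned count, levels were lower, with 12.1 for Mir1188 and 37.8 for Mir3072. The depth limits Mir1188 most, with 44 counts in replicate 2.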
